A study of Mus musculus with 10 samples.

Results

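The collagen genes encode the alpha chains that wind around each other into the triple helices of collagen. They were taken here as every gene whose symbol reads Col, a number, the letter a and a number, and whose probe set carried that symbol alone. Of 19935 genes with such a probe set, 44 were collagen genes, and they fall into 9 structural classes. A gene with several probe sets was represented by the brightest, which mattered for Col6a5 and Col6a6 only. Expression was measured on 10 Affymetrix arrays in sorted cells of the mammary gland, taken from virgin female littermates of 8 to 12 weeks that shared cages. The groups were mature luminal cells of control mice (3 arrays, sorted as lineage-negative, CD29-low, CD24-positive, CD61-negative), MaSC/basal cells of Pygo2 SSKO mice (3 arrays, lineage-negative, CD29-high, CD24-positive) and MaSC/basal cells of control mice (4 arrays, the same gate). MaSC stands for mammary stem cell. Cells carrying CD31, CD45 or TER119 had been stained as lineage-positive after collagenase digestion of the gland. The abbreviation SSKO is not spelled out in the labels, which name no Cre driver, while the title speaks of Pygo2-null cells. The protein Pygo2 reads methylation of histone H3 through a PHD finger and acts with beta-catenin in transcription. No SSKO luminal arrays were analysed here. Arrays are labelled as biological replicates, but the animals behind each are not stated, so the tests measure array-to-array spread, which may be partly technical.

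Collagen chains are made in the endoplasmic reticulum, where prolines and lysines are hydroxylated before the helix folds, and are then secreted, trimmed and cross-linked outside the cell. In the mammary gland the basal, or myoepithelial, cells sit on the basement membrane, a sheet built on type IV collagen, and surround the luminal cells, which mostly do not touch it. Fibrillar collagens such as types I and III form the connective tissue around the ducts and are classically products of fibroblasts. All levels below are log2(intensity + 16) of 1 probe set. They can be compared between arrays for the same gene, but not between genes, since probe sets differ in brightness. Differences are control luminal minus control basal or SSKO basal minus control basal, and the pseudocount of 16 makes them understate the change of dim genes.

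The upstream sequences of 4 genes are shown for the results they carry. Col8a1 had the larger of the 2 luminal rises, Col17a1 and Col1a2 were among the largest luminal falls in an epithelial and a fibrillar collagen, and Col6a1 had the smallest p in SSKO cells. Each is the 250 bases before the outermost RefSeq start of the gene (GRCm38.p6), read 5′ to 3′ along the gene's strand. Capitals mark GGGCGG (the GC box), CCAAT and TATAAA on either strand, so that CCGCCC and ATTGG are the GC box and the CCAAT box of the other strand.
Col8a1, chr16:57754738-57754987, minus strand: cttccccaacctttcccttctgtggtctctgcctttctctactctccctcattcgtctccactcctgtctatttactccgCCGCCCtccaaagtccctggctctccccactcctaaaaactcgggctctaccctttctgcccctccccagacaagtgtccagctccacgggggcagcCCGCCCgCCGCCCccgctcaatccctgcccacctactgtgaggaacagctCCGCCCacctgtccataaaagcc
Col17a1, chr19:47692043-47692292, minus strand: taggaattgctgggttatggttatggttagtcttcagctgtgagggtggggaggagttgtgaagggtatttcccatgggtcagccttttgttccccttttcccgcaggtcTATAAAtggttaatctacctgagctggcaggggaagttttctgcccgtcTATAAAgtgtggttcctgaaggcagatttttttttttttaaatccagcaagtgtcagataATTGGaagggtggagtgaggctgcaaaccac
Col6a1, chr10:76726045-76726294, minus strand: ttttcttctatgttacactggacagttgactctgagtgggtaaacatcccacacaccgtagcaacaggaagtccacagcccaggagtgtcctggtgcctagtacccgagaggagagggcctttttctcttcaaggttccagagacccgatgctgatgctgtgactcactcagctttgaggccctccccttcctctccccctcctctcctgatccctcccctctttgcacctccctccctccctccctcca
Col1a2, chr6:4505368-4505617, plus strand: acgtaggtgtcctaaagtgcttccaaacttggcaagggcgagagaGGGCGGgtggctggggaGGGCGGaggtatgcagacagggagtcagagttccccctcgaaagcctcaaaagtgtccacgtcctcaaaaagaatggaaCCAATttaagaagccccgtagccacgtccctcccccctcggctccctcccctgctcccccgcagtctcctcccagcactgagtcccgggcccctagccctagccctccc
The Col8a1 window held 4 GC boxes and neither of the other motifs. The Col17a1 window held 1 CCAAT box and 2 TATAAA matches, and its base composition was 46% G and C against 60.8% for Col8a1. The Col1a2 window held 2 GC boxes and 1 CCAAT box, and none of these letters occurred in the Col6a1 window. RefSeq windows were found for 35 of the 44 genes, 38 windows in all. A GC box occurred in 57.9% of them and in 32.7% of all 32851 windows of the same length. The shares were 34.2% and 33.9% for CCAAT and 13.2% and 12.4% for TATAAA, and the median G and C content was 59% and 52.4%. Col4a1 and Col4a2 are neighbours on chromosome 8 transcribed in opposite directions, and their 300-base start regions shared 78 bases. A match of letters is a description and not evidence that a factor binds.

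Pygo2 itself had log2 levels of 6.99, 5.94 and 5.86 in SSKO basal arrays 1 to 3 and of 8.30, 9.09, 8.11 and 8.91 in control basal arrays 1 to 4 (difference -2.34, SE 0.32, limma adjusted p = 0.0441). The groups did not overlap, and it was not determined here if this probe set covers the deleted sequence. The SSKO mean of 6.26 lay below the filter limit of 6.74 described below, so the full size of the fall is not known. The sorted populations carried their markers. Summed intensity of 10 basal and myoepithelial markers was 2164 to 14147 in luminal, 76091 to 82701 in SSKO basal and 75627 to 80778 in control basal arrays. That of 7 mature luminal markers was 88486 to 90953, 18552 to 21539 and 12394 to 16603 in the same groups. Luminal array 3 was the brightest luminal array for all 10 basal markers, with the basal keratin Krt14 at 11.86 against 8.82 and 7.78 in luminal arrays 1 and 2. Spearman correlations between arrays across the genes tested ran from 0.702 to 0.980.

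Most collagen genes that are bright in basal cells were dim in luminal cells. All 44 passed the filter on dim probe sets, the dimmest being Col10a1 with a mean of 7.14 over all arrays against the limit of 6.74, so no member was left untested. Of the 44, 22 fell and 2 rose in control luminal relative to control basal cells at a limma adjusted p under 0.05, and 20 did not pass. Across all 15815 genes tested, 19.7% fell and 24.6% rose in this comparison. The median difference was -0.64 over the collagen genes, with a range from -5.01 to 4.16, against 0.07 over all genes, and 34 of the 44 differences were below 0. The 22 that fell had a summed intensity of 4432 to 5151 in luminal arrays and 31659 to 51724 in control basal arrays. These genes were chosen by the same comparison of the same arrays, so the direction of that gap was set in advance. The arrays measure RNA of whole sorted populations, so fewer cells of a type and less RNA per cell cannot be told apart. In the plot of differences by class, the falls were spread over 7 of the 9 classes.

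**Figure D1:**
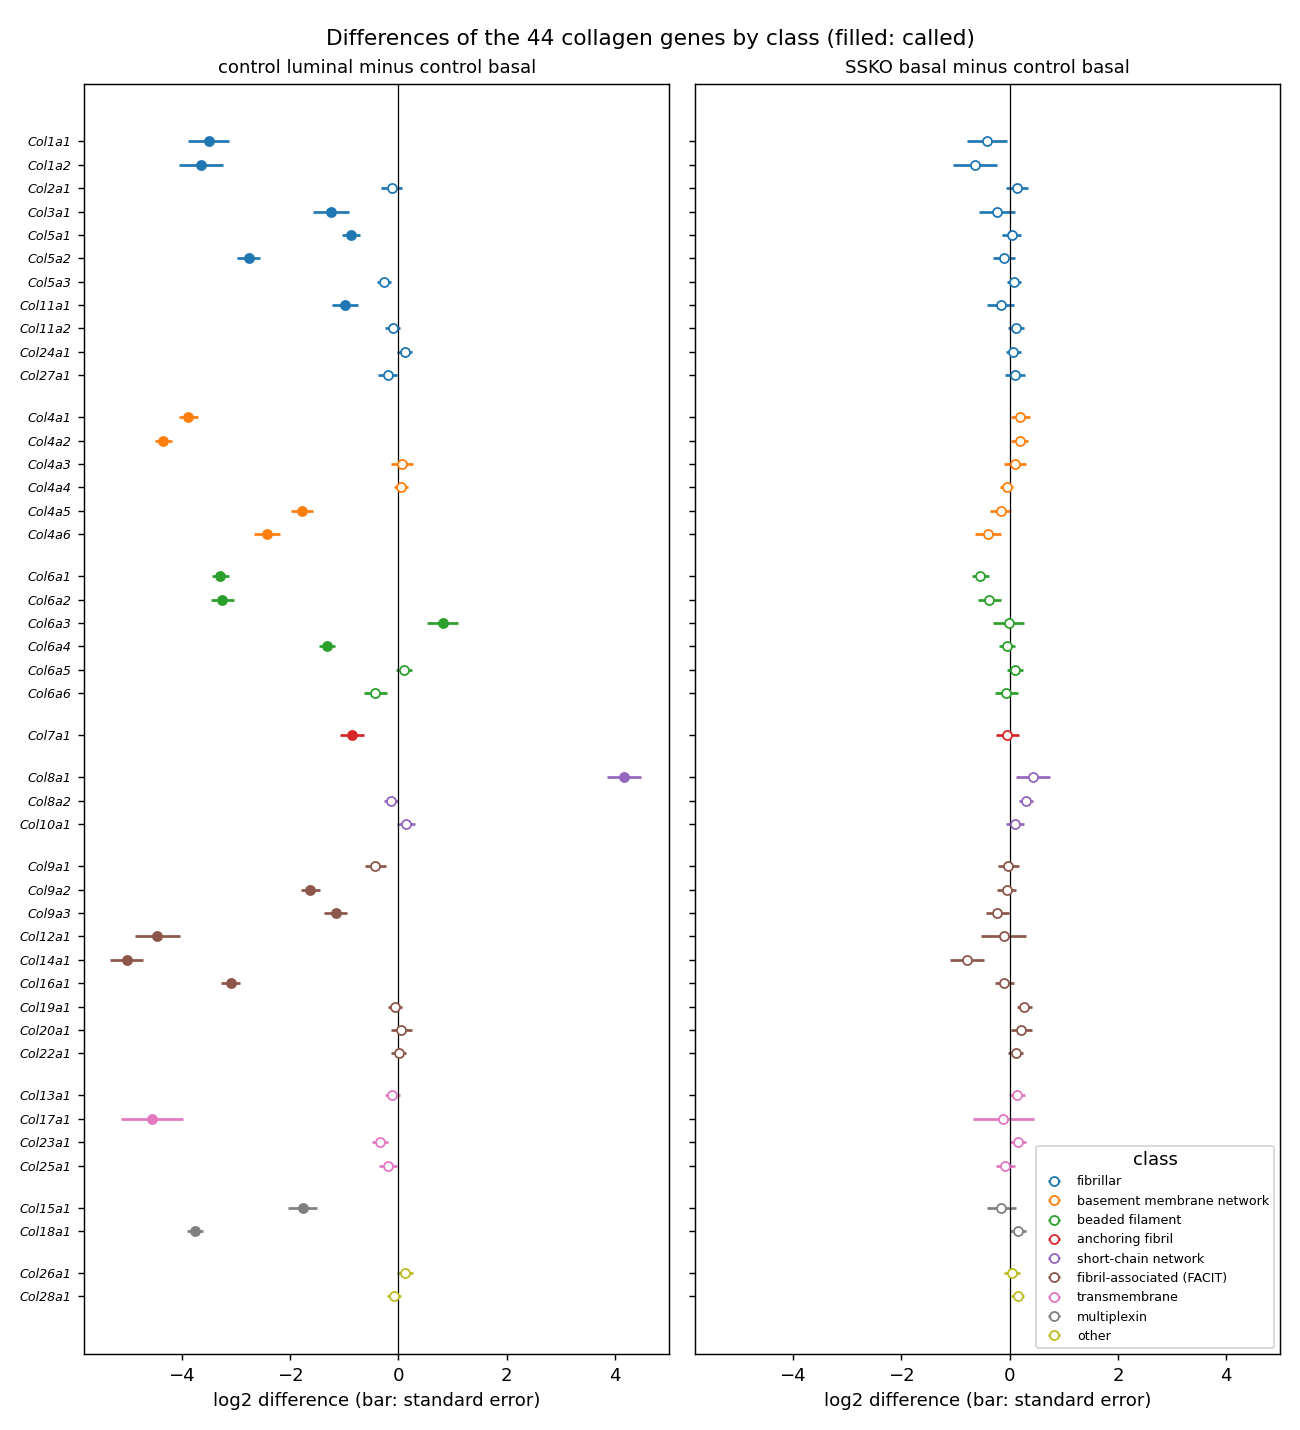
Log2 differences of the 44 collagen genes, grouped and coloured by structural class, for control luminal minus control basal (left) and SSKO basal minus control basal (right). Points are limma estimates with bars of 1 standard error, and filled points are genes at an adjusted p under 0.05. The luminal differences run from -5.01 for Col14a1 to 4.16 for Col8a1, whereas all 44 SSKO differences lie between -0.79 and 0.44 and none is filled.

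Col8a1 was the exception among the large differences. It encodes a chain of type VIII collagen, a short-chain collagen that forms hexagonal networks, known from Descemet's membrane of the cornea and from blood vessels. Its log2 level was 11.95, 11.58 and 11.71 in luminal arrays, 8.80, 7.45 and 7.83 in SSKO basal arrays and 8.27, 7.36, 7.46 and 7.25 in control basal arrays. Every luminal array lay far above every basal array, and the difference was 4.16 (SE 0.31, limma adjusted p = 1.22e-06), or 17.9-fold. The partner chain Col8a2 was at 7.62, 7.69 and 7.43 in luminal and 7.64, 7.86, 7.87 and 7.47 in control basal arrays, and these groups overlapped (difference -0.13). Col10a1, also a short-chain collagen and a marker of hypertrophic cartilage, had a difference of 0.15 and did not pass.

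Col6a3, the other gene that rose, encodes the alpha 3 chain, the longest of the classical chains of the type VI beaded filaments. Its level was 9.83, 9.75 and 9.44 in luminal arrays, 8.94, 8.46 and 9.12 in SSKO basal arrays and 8.38, 8.79, 9.73 and 8.53 in control basal arrays. Control basal array 3 lay within the luminal range, so the groups overlapped. The difference was 0.82 (SE 0.29, limma adjusted p = 0.0394). This call ended when control basal array 1, 2 or 4 or luminal array 1 or 2 was left out (adjusted p = 0.0939, 0.0756, 0.0939, 0.122 and 0.105), and without control basal array 3 the difference was 1.11 (adjusted p = 0.00121).

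The 2 chains that classically assemble with Col6a3 went the other way. Col6a1 was 7.64, 7.54 and 7.44 in luminal arrays, 10.47, 10.23 and 10.16 in SSKO basal arrays and 10.51, 11.06, 11.09 and 10.65 in control basal arrays. Col6a2, its neighbour on chromosome 10, was 7.26, 6.79 and 6.94 in luminal arrays, 10.12, 9.55 and 9.96 in SSKO basal arrays and 10.002, 10.26, 10.76 and 9.98 in control basal arrays. Both fell in luminal cells, with differences of -3.28 for Col6a1 (SE 0.16, limma adjusted p = 5.00e-08) and -3.25 for Col6a2 (SE 0.21, adjusted p = 4.08e-07). Of the alternative chains that can stand in for Col6a3, Col6a4 fell (-1.31, SE 0.15), while Col6a5 (0.11) and Col6a6 (-0.42) did not pass. The 2 probe sets of Col6a6 differed. The one used had means of 8.85 ± 0.21 in luminal and 9.28 ± 0.44 in control basal arrays, and the dimmer one had means of 6.57 ± 0.09 and 8.17 ± 0.74 (SD, n = 3 and 4). With the mean of both probe sets the difference was -1.01 and passed (adjusted p = 0.0081).

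**Figure D2:**
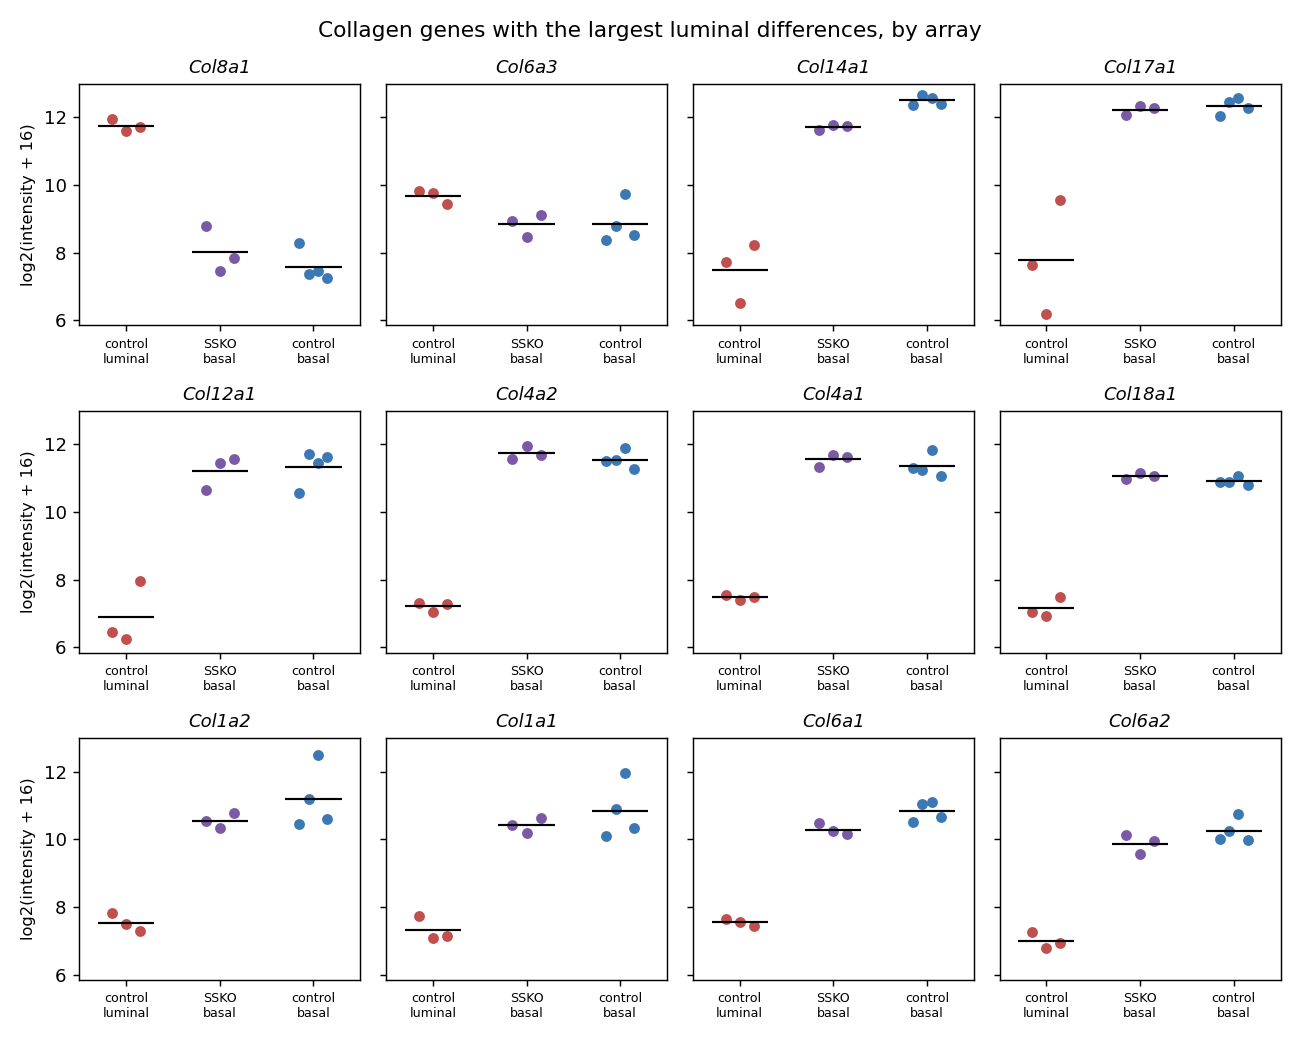
Log2(intensity + 16) of the 2 collagen genes that rose and the 10 that fell most in control luminal cells, with 1 point per array and a line at the group mean, in 3 control luminal, 3 SSKO basal and 4 control basal arrays. Luminal arrays lie above all basal arrays for Col8a1, overlap them for Col6a3 and lie below all basal arrays for the other 10. Luminal array 3 is the highest luminal array for Col14a1, Col17a1, Col12a1 and Col18a1. Control basal array 3 is the highest basal array for Col1a1, Col1a2, Col4a1, Col17a1, Col6a1, Col6a2 and Col6a3.

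Among the basement membrane collagens, neighbouring type IV genes had like outcomes. Col4a1 and Col4a2 form the type IV network found in nearly all basement membranes. Col4a1 was 7.55, 7.40 and 7.50 in luminal arrays, 11.34, 11.70 and 11.64 in SSKO basal arrays and 11.29, 11.26, 11.83 and 11.06 in control basal arrays. Col4a2 was 7.31, 7.04 and 7.30 in luminal arrays, 11.57, 11.96 and 11.68 in SSKO basal arrays and 11.50, 11.53, 11.89 and 11.29 in control basal arrays. For both genes the spread within groups was small beside the gap between luminal and basal arrays. Col4a2 fell 20.2-fold in luminal cells (difference -4.34, SE 0.16, limma adjusted p = 9.18e-09) and Col4a1 14.7-fold (-3.88, SE 0.18, adjusted p = 3.16e-08). Col4a5 and Col4a6, neighbours on the X chromosome and chains of a network found in some epithelia and around smooth muscle, also fell, with differences of -1.78 (SE 0.20) and -2.43 (SE 0.24). Luminal array 3 was the highest luminal array for both, with Col4a6 at 8.40 against 7.45 and 7.40. Col4a3 and Col4a4, neighbours on chromosome 1 and chains of the kidney glomerular membrane, had differences of 0.07 and 0.05 with means between 7.19 and 7.43 in all 3 groups, and neither passed.

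Col18a1 and Col15a1 are the multiplexins, proteoglycan-like collagens attached to basement membranes, and Col18a1 is the source of the fragment endostatin. Col18a1 was 7.03, 6.92 and 7.50 in luminal arrays, 10.98, 11.15 and 11.06 in SSKO basal arrays and 10.88, 10.89, 11.06 and 10.80 in control basal arrays. It fell 13.5-fold in luminal cells (difference -3.76, SE 0.15, limma adjusted p = 1.29e-08). Col15a1 was 7.67, 7.88 and 7.03 in luminal arrays and 9.13, 9.08, 9.97 and 8.99 in control basal arrays, and fell by 1.77 (SE 0.27, adjusted p = 2.77e-04). The groups did not overlap for either gene, but control basal array 3 stood above the other control arrays for Col15a1.

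Col17a1 and Col7a1 anchor epithelia to their matrix. Col17a1, a transmembrane collagen of hemidesmosomes also known as BP180, was 7.64, 6.17 and 9.54 in luminal arrays, 12.06, 12.34 and 12.28 in SSKO basal arrays and 12.05, 12.44, 12.58 and 12.28 in control basal arrays. The basal arrays lay close together, whereas the luminal arrays were widely spread and stood in the same order as for Krt14, highest in luminal array 3 and lowest in luminal array 2. Col17a1 fell 23.4-fold (difference -4.55, SE 0.57, limma adjusted p = 6.24e-05), and without luminal array 3 the difference was -5.43, or 43.1-fold. The part of that array's basal marker signal in the Col17a1 level was not tested. The other transmembrane members did not pass, namely Col23a1 (-0.34), Col25a1 (-0.19) and Col13a1 (-0.11). Col7a1, the anchoring fibril collagen, was 9.39, 9.39 and 8.86 in luminal arrays, 10.07, 10.17 and 9.86 in SSKO basal arrays and 10.07, 9.95, 10.62 and 9.65 in control basal arrays. Its fall was small, 0.86 (SE 0.22, adjusted p = 0.00746), with no overlap between luminal and basal arrays.

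The fibril-associated collagens (FACIT), which sit on the surface of fibrils, held the largest fall. Of 9 members 5 fell and 4 did not pass. Col14a1 was 7.72, 6.52 and 8.22 in luminal arrays, 11.63, 11.77 and 11.75 in SSKO basal arrays and 12.36, 12.67, 12.58 and 12.40 in control basal arrays. It fell 32.3-fold in luminal cells (difference -5.01, SE 0.31, limma adjusted p = 2.50e-07), and the 3 groups did not overlap with one another. Col12a1, a close relative of Col14a1, was 6.45, 6.25 and 7.96 in luminal arrays, 10.66, 11.45 and 11.58 in SSKO basal arrays and 10.58, 11.71, 11.45 and 11.61 in control basal arrays. It fell 21.9-fold (difference -4.45, SE 0.41, adjusted p = 6.37e-06). Luminal array 3 was again the highest, and without it the difference was -4.99. The other luminal arrays lay below the filter limit of 6.74 for Col12a1, so the full size of its fall is not known. Col16a1 fell by 3.09 (SE 0.17, adjusted p = 1.32e-07), with means of 7.19 ± 0.07 in luminal and 10.28 ± 0.31 in control basal arrays (SD, n = 3 and 4). Col9a2 and Col9a3, chains of the type IX collagen of cartilage, fell too (-1.62, SE 0.18, and -1.16, SE 0.21), while Col9a1 (-0.43), Col19a1 (-0.06), Col20a1 (0.05) and Col22a1 (0.01) did not pass.

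Of the 11 fibrillar collagens 6 fell and 5 did not pass. Col1a1 and Col1a2, the chains of type I collagen, were among the 10 largest falls. Col1a1 was 7.74, 7.09 and 7.16 in luminal arrays, 10.42, 10.19 and 10.62 in SSKO basal arrays and 10.11, 10.91, 11.97 and 10.32 in control basal arrays. Col1a2 was 7.83, 7.48 and 7.30 in luminal arrays, 10.55, 10.32 and 10.79 in SSKO basal arrays and 10.46, 11.18, 12.50 and 10.59 in control basal arrays. For both, control basal array 3 stood well above the other 3 control arrays, and all basal arrays lay above all luminal arrays. Col1a2 fell 12.5-fold (difference -3.64, SE 0.40, limma adjusted p = 2.33e-05) and Col1a1 11.3-fold (-3.50, SE 0.37, adjusted p = 1.78e-05). Col5a2 had a difference of -2.76 (SE 0.21) and Col3a1, its neighbour on chromosome 1, one of -1.24 (SE 0.33), and both passed. The luminal mean of Col5a2, 6.49, lay below the filter limit, so the full size of its fall is not known. Col11a1 and Col5a1, minor chains that sit in the core of fibrils, also fell, with differences of -0.98 (SE 0.24) and -0.87 (SE 0.17). The cartilage collagen Col2a1 (-0.12) and Col5a3 (-0.27), Col11a2 (-0.11), Col24a1 (0.12) and Col27a1 (-0.20) did not pass. The remaining Col26a1 (0.12) and Col28a1 (-0.08) did not pass either, and no difference among the 20 genes that missed the threshold exceeded 0.43 in size.

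Most fibroblast markers fell in luminal cells, as did 6 of 11 fibrillar collagens and all 10 basal and myoepithelial markers. For the marker counts that follow, the shares over all genes tested were 19.7% lower and 24.6% higher. Of 12 fibroblast markers other than collagens 11 were tested, of which 9 fell and 1 (Scara5) rose in luminal cells, with a median difference of -2.89. Their summed intensity was 2398 to 7556 in luminal, 18569 to 24720 in SSKO basal and 18084 to 27560 in control basal arrays. The matrix protein Postn was 8.66, 7.61 and 9.17 in luminal arrays and 12.73 to 13.11 in control basal arrays, and the proteoglycan Dcn was 12.46, 11.43 and 9.03 and 12.62 to 13.11. The receptor Pdgfra, a defining fibroblast marker, was 6.43 to 6.91 in luminal, 8.37 to 9.05 in SSKO basal and 8.68 to 10.88 in control basal arrays. Luminal means of the fibroblast markers Pdgfra, Lum, Dpt, Mfap5 and Pi16 were 6.60, 5.66, 6.37, 5.99 and 6.08, below the filter limit of 6.74. The full size of these falls, and of the median fibroblast marker difference, is therefore not known. Of 9 pericyte markers 8 were tested and 5 fell, with Rgs5 at 7.79 to 8.52 in luminal and 8.87 to 10.22 in control basal arrays, while Anpep (0.48) did not pass. Summed intensity of the pericyte markers was 3734 to 4983 in luminal and 3916 to 6292 in control basal arrays, and Anpep was the brightest of them. Their mean log2 level was 7.57 in luminal and 8.38 in control basal arrays. Pdgfrb, also a defining marker of pericytes, fell most, by 3.16 (SE 0.26). It was 6.65 to 6.89 in luminal and 9.48 to 10.70 in control basal arrays. The luminal mean of Pdgfrb, 6.739, lay just below the filter limit of 6.741, so its fall may be larger than given. The part of fibroblasts or pericytes in the collagen differences was not tested. Immune cells gave 3 falls among 9 tested markers, including Cd68 (-0.59) and Cd74 (-2.44, with a luminal mean of 6.56, below the filter limit), with a summed intensity of 1585 to 1817 in luminal and 1982 to 3173 in control basal arrays, and their defining marker Ptprc lay between 6.66 and 7.02 on all 10 arrays. Summed Schwann cell markers were 1868 to 2246 in luminal and 1437 to 1782 in control basal arrays, and summed adipocyte markers 3280 to 4225 and 2170 to 3746. The adipocyte markers Lipe (1.62) and Fabp4 (-1.66) went opposite ways, and the Schwann cell markers Mbp (0.12) and S100b (0.18) did not pass.

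Among genes that make and handle collagen, most of those called were lower in luminal cells, with exceptions. Of 19 tested genes for synthesis, folding and export, 10 fell, 2 rose and 7 did not pass, with a median difference of -0.74. Over all genes tested 19.7% fell and 24.6% rose. Serpinh1, the collagen chaperone HSP47, fell by 3.19 (SE 0.15, limma adjusted p = 4.45e-08), at 8.16, 8.27 and 8.82 in luminal and 11.67, 11.63, 11.60 and 11.50 in control basal arrays. The prolyl 3-hydroxylase family members P3h1 and P3h3 fell as well (-2.78, SE 0.16, and -2.02, SE 0.12), and the luminal mean of P3h1, 6.42, lay below the filter limit, so the full size of its fall is not known. Mia2, whose products load large cargo such as procollagen into transport vesicles, rose by 2.24 (SE 0.14), with 8.42, 8.43 and 8.15 in luminal and 5.88 to 6.29 in control basal arrays. The control basal levels lay below the filter limit, so the full size of the rise is not known. The prolyl 4-hydroxylase subunit P4ha2 rose by 1.16 (SE 0.41, adjusted p = 0.0374), although luminal array 1, at 8.38, lay within the control basal range of 8.25 to 8.83. Another prolyl 4-hydroxylase subunit, P4ha1, fell without overlap (difference -1.90, SE 0.13, limma adjusted p = 4.63e-07). The general subunit P4hb (0.07) did not pass.

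Of 11 tested genes for procollagen cleavage and cross-linking, 6 fell, 1 rose and 4 did not pass. For this list and the receptors below, the shares of all genes tested were 19.7% lower and 24.6% higher. Summed intensity of the 12 listed cleavage and cross-linking genes was higher in luminal arrays, 16314 to 18175 against 9761 to 12777 in control basal arrays. Their mean log2 level was lower, 8.10 against 9.02, and Tgm2 was the brightest of them. Of the 4 tested lysyl oxidases, which cross-link collagen and elastin, 3 fell, with differences of -4.00 for Loxl3 (SE 0.24, limma adjusted p = 2.36e-07), -3.44 for Loxl1 (SE 0.41) and -3.03 for Lox (SE 0.24), while Loxl4 (0.31, adjusted p = 0.160) did not pass. Luminal levels of the 3 that fell were 5.34 to 6.67, below the filter limit of 6.74, so the full size of their falls is not known. Loxl1 was 10.50 in control basal array 3 and 8.38 to 8.92 in the other 3. Tgm2, a transglutaminase that cross-links matrix proteins, rose by 2.45 (SE 0.15, adjusted p = 2.20e-07), at 13.63, 13.60 and 13.76 in luminal and 11.05 to 11.40 in control basal arrays. Of 9 tested collagen receptors 6 fell and 0 rose, with the sorting marker Itgb1 counted among the 6. They included the integrin chain Itga1 (-4.29, SE 0.20), the discoidin receptor Ddr2 (-2.50, SE 0.16) and the endocytic receptor Mrc2 (-2.23, SE 0.23), while the epithelial discoidin receptor Ddr1 (0.02) did not pass. Luminal means of Itga1, Ddr2 and Mrc2 were 6.68, 6.45 and 6.65, below the filter limit, so these falls may be larger than given. Itgb1 encodes CD29, on which the cells were sorted, so its difference of -0.78 is no finding.

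**Figure D3:**
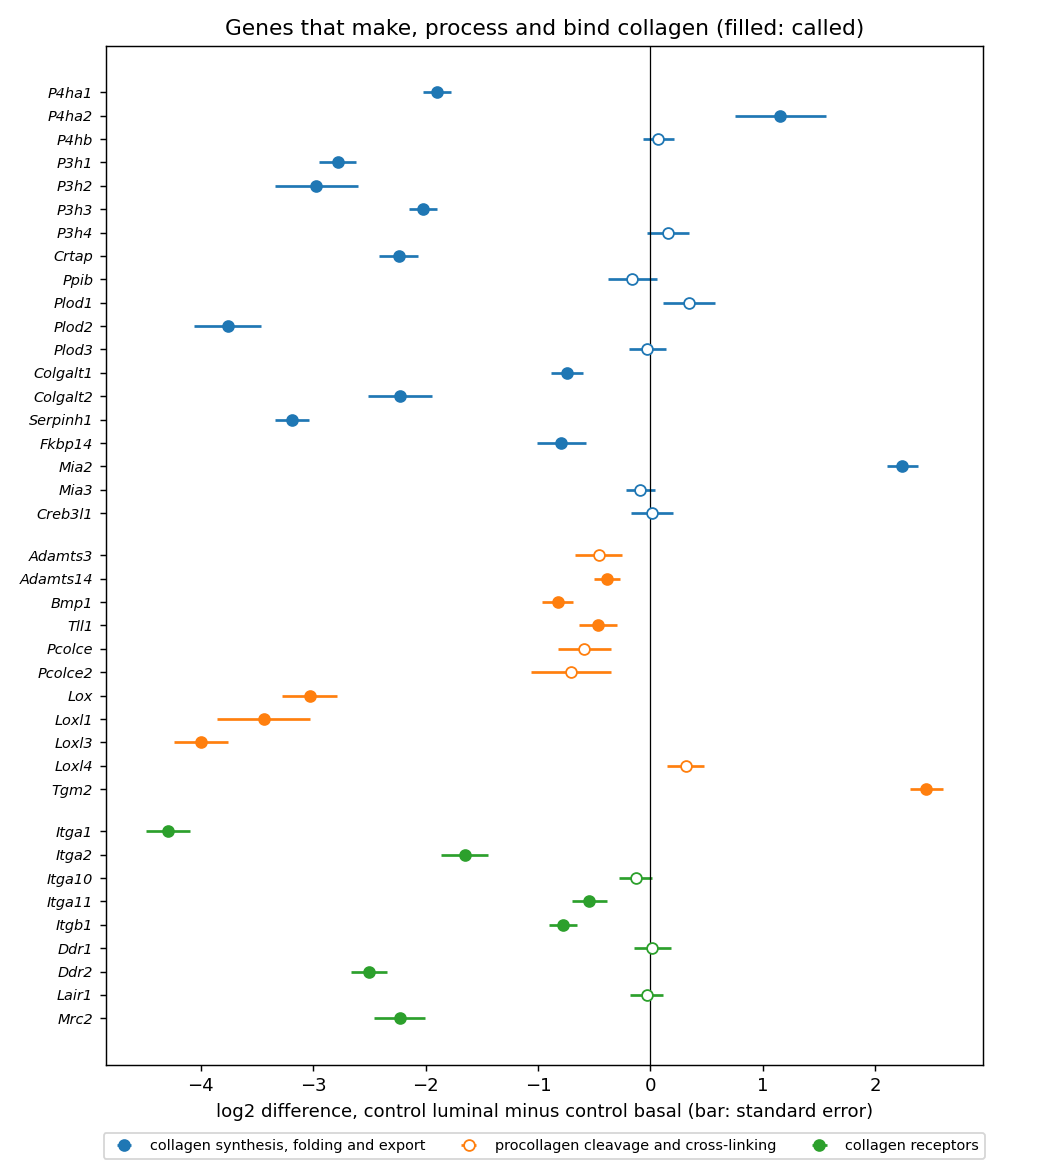
Log2 differences, control luminal minus control basal, of tested genes that make, process or bind collagen, with bars of 1 standard error and filled points at a limma adjusted p under 0.05. Mia2, P4ha2 and Tgm2 lie to the right of 0 as filled points, and Itga1, Loxl3, Plod2 and Loxl1 lie farthest to the left, all with luminal means below the filter limit of 6.74.

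In SSKO basal cells no collagen gene rose or fell at the same threshold. Across all genes tested, limma called 0.0316% higher and 0.00632% lower. The median difference over the collagen genes was -0.02, against 0.01 over all genes, and the range was -0.79 to 0.44, with 21 above 0 and 23 below. An unadjusted p under 0.05 was reached by 3 of the 44 and by 479 of the 15815 genes. The 95% confidence interval of the difference extended by a median of 0.39 to either side, and for 38 of the 44 genes it lay entirely within 1 log2 unit of 0. SSKO and control basal arrays did not overlap for Col14a1 and Col6a1, both lower, and for Col8a2, higher. Across all genes 2.02% were lower without overlap and 2.45% higher.

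Col14a1 was 11.63, 11.77 and 11.75 in SSKO basal arrays against 12.36, 12.67, 12.58 and 12.40 in control basal arrays. Its spread was narrow in both groups, 0.08 and 0.15 (SD, n = 3 and 4), and the difference was -0.79 (SE 0.31, limma adjusted p = 1.00). The shared spread of the fit includes the luminal arrays, which scattered with an SD of 0.87 for this gene. In a fit to SSKO and control basal arrays alone the adjusted p was 0.199. Col6a1 had means of 10.29 ± 0.16 in SSKO and 10.83 ± 0.29 in control basal arrays (difference -0.54, SE 0.16, adjusted p = 1.00). Col8a2 was 8.01, 8.10 and 7.93 in SSKO against 7.64, 7.86, 7.87 and 7.47 in control basal arrays (difference 0.30, SE 0.13). Col19a1, a fibril-associated collagen, was 7.83, 8.03 and 8.11 against 7.61, 7.72, 7.90 and 7.65 (difference 0.27, SE 0.14), and its groups overlapped. Differences in SSKO cells lay between -0.43 and 0.11 for the synthesis genes, between -0.57 and 0.49 for the cleavage and cross-linking genes and between -0.33 and 0.10 for the receptors, and none of these passed. Both comparisons use the same control basal arrays, so they are not independent of each other.

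The levels of Col1a1, Col1a2 and Col3a1 had SDs of 0.21, 0.23 and 0.30 among SSKO basal arrays (n = 3) and of 0.83, 0.93 and 0.74 among control basal arrays (n = 4), where array 3 stood highest. Control basal array 3 was the highest of the 4 control arrays for 28 of the 44 collagen genes, or 63.6%, and for 19.4% of all genes. It was also the highest for 10 of 12 fibroblast markers, with Pdgfra at 10.88 against 9.25, 9.74 and 8.68 and Lum at 10.95 against 9.88, 9.24 and 9.75. Among basal and myoepithelial markers it was the highest control array for 5 of 10. Other groups also had an array that was often highest for collagen genes. SSKO array 2 was the highest SSKO array for 27 of 44 (61.4%, against 40.6% of all genes) and for 1 of 12 fibroblast markers. Luminal array 1 was the highest luminal array for 24 of 44 (54.5%, against 34.2%) and for 6 of 12. The part of fibroblasts in these rankings was not tested. Over all basal arrays, Dcn, Postn, Dpt and Clec3b were highest in SSKO array 3 and the other fibroblast markers in control array 3. Summed intensity of Col1a1, Col1a2 and Col3a1 was 3266 to 4589 in SSKO basal arrays, and 3272, 5315, 12313 and 3736 in control basal arrays 1 to 4. Without control basal array 3 the SSKO difference was -0.04 for Col1a1, -0.19 for Col1a2 and 0.12 for Col3a1, against -0.42, -0.63 and -0.24 with it. The number of fibrillar collagens below 0 was then 2 of 11, against 5 with it. Col14a1 (-0.76) and Col6a1 (-0.45) were as low or nearly as low without that array, at -0.79 and -0.54 with it.

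**Figure D4:**
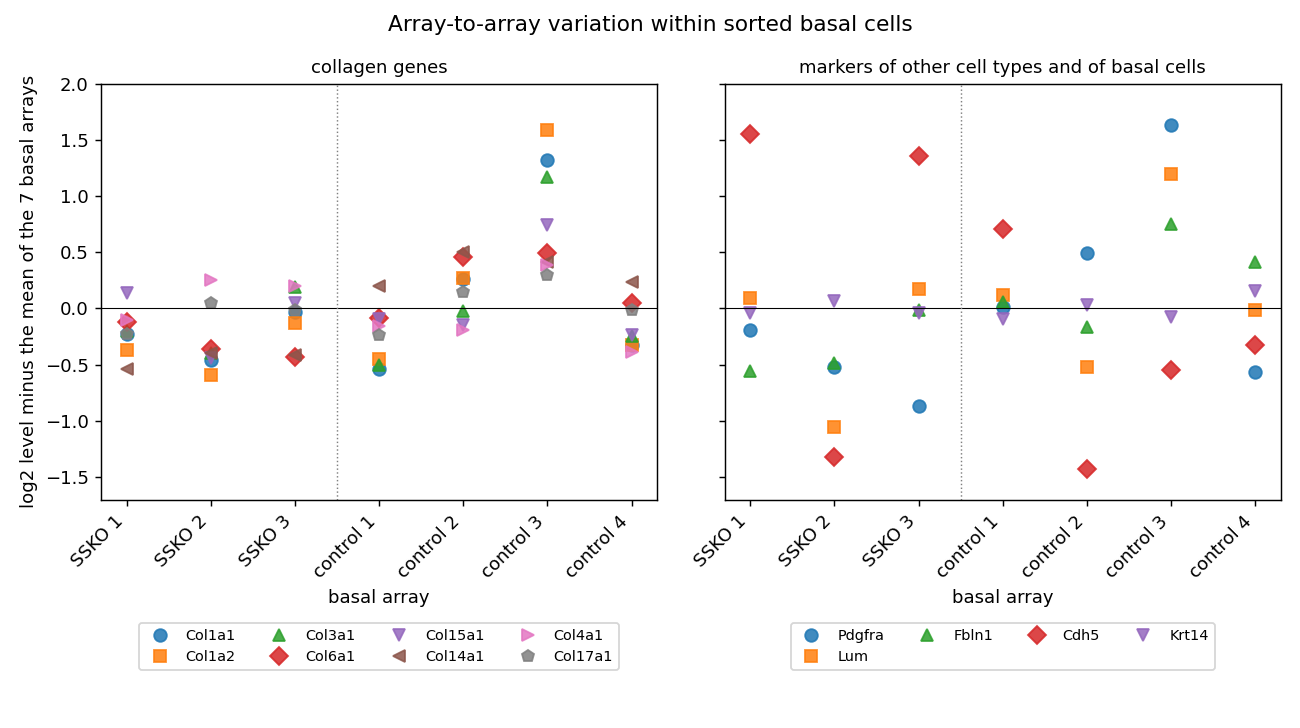
Log2 level of each gene minus its mean over the 7 basal arrays, by array, for 8 collagen genes (left) and for the fibroblast markers Pdgfra, Lum and Fbln1, the endothelial marker Cdh5 and the basal keratin Krt14 (right), with 3 SSKO arrays left of 4 control arrays. All of these collagen genes except Col14a1 are highest in control array 3, as are Pdgfra, Lum and Fbln1. Of the fibroblast markers not shown, Dcn, Postn, Dpt and Clec3b are highest in SSKO array 3. Cdh5 is highest in SSKO arrays 1 and 3 and control array 1, and Krt14 varies little.

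Endothelial markers varied between basal arrays in another pattern, although CD31-positive cells had been stained for removal. Summed intensity of 12 markers was 25230, 4197 and 14643 in SSKO basal arrays 1 to 3 and 13150, 4523, 6086 and 5405 in control basal arrays 1 to 4, against 3256 to 4482 in luminal arrays. Cdh5 was 11.88, 9.01 and 11.69 in SSKO and 11.03, 8.90, 9.78 and 10.01 in control basal arrays, and Eng 11.74, 10.58 and 11.03 and 10.88, 10.52, 10.65 and 10.10. Of these markers 1 fell in luminal cells and 11 did not pass, while 19.7% of all genes tested fell. Among basal arrays Col8a1 was highest in SSKO array 1 (8.80) and control array 1 (8.27), both bright for endothelial markers. Without those 2 arrays and SSKO array 3 the SSKO difference of Col8a1 was 0.10 rather than 0.44, and its luminal difference was 4.39. That of Col1a2 in SSKO cells was then -1.10 and that of Col14a1 -0.78, with a single SSKO array left, assumed to vary like the others, and neither passed. The part of endothelial cells in these levels was not tested.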

How the data were processed

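Total RNA of sorted mouse mammary cells was hybridised to 10 arrays, 1 per sample. The deposited table holds linear intensity values for 28815 probe sets, made with Affymetrix Expression Console 1.1 and PLIER 2.0 per the submitters' processing notes, which give no roles. Normalization between arrays and the genome build are not given in the sources used here. Array medians were 205 to 228. Of the probe sets, 21780 had 1 gene symbol, 1605 several and 5430 none. Of single symbols, 21689 matched the current gene table. The table carries no detection calls, so a dim gene is not shown to be silent, and the number of arrays limits the precision. No scan date or batch was used here.

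Values were taken as log2(intensity + 16). Probe sets in the lowest 25% by mean level were dropped, which left 15815 genes. Group means of all 10 arrays were fitted with limma 3.58.1 (lmFit and eBayes, R 4.3.3, 7 residual degrees of freedom), with two-sided tests, Benjamini-Hochberg adjustment over all genes and a threshold of 0.05. The steps were tested on simulated data. Plots used matplotlib 3.10.9 (Python 3.11.15). Members, gene lists and tests were chosen with earlier results of these data known.

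Values in every array are given for the 3 brightest members of each group, the called luminal rises, the 10 largest luminal falls and the 4 SSKO differences of smallest p. From each list of collagen-handling genes up to 3 called genes of smallest p per direction are given, and from each marker list the 2 brightest. Genes named outside this rule were chosen after their values were seen. Alternatives covered the pseudocount, the filter, quantile normalization, centring, the groups fitted, the variance model, array weights, probe set averaging, a replicate block, each array left out, and omission of the 3 basal arrays with the most endothelial marker signal.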

Additional observations from a re-analysis of the deposited data

Results flagged for a closer look

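In 1 of the 44 collagen genes, a single array stood apart from the rest of the 4 control basal arrays by Dixon's criterion. Col15a1 was 9.97 in control basal array 3 and 8.99 to 9.13 in the other 3, a gap that is 0.856 of the whole range. That array also held the highest control level for 28 of the 44 genes. Chance alone marks about 1 in 20 groups of 4. Groups of 3 arrays were not examined.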

How the results depend on the processing

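In SSKO basal cells 0 collagen genes were called in the main fit and in each of 19 alternatives. The lowest adjusted p of any member was 0.199, for Col14a1 in the fit without luminal arrays. In luminal cells 22 genes fell in the main fit and 22 to 25 in the alternatives. With the replicate number as a block (replicate block) 25 fell, and Col6a6, Col9a1 and Col23a1 were the genes gained. Only control basal cells have an array numbered 4, so that array adds nothing to the differences of the block fit. Leaving it out gave the same differences for Col9a1 (-0.58) and Col23a1 (-0.44), which were gained there too. The block fit and that omission are therefore not separate checks. Only 1 gene rose, in place of 2, with the replicate block, after quantile normalization, when luminal and control basal arrays were fitted without SSKO arrays, and without the 3 arrays of most endothelial marker signal. With 1 array left out at a time the number that rose was 1 to 2. The gene lost was Col6a3 each time, whose adjusted p ran from 0.00121 to 0.122 and missed the threshold in 9 of 19 alternatives, with the cause not tested. The other 23 luminal calls held in all 19 with their sign. Some differences that missed the threshold turned. The SSKO difference of Col3a1 was 0.12 without control basal array 3, against -0.24. Luminal Col2a1 was 0.02 without luminal array 3, against -0.12, and Col20a1 and Col22a1 were -0.05 and -0.04 without the 3 endothelial-bright arrays, against 0.05 and 0.01. With the lowest 50% of probe sets dropped, 33 members were tested.

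Replicate numbers were not treated as pairs. Deviations of same-numbered arrays correlated at 0.63, 0.46 and 0.05 between SSKO and control basal arrays and at -0.08, -0.08 and -0.06 between luminal and control basal arrays, and SSKO array 3 correlated best with control array 4 (0.43). Median centring moved the median luminal difference of all genes to 0.11, against 0.07 unscaled. Groups of 3 and 4 arrays, no detection calls and unknown scaling by the submitters limit what small differences can show.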
